A study of Homo sapiens with 9 samples.

Results

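The genes described here are 59 protein-coding genes of the short arm of chromosome 10 (10p), the arm that carries DIP2C, the gene targeted in these cells. They were taken by name from the 23619 gene symbols of the count tables, DIP2C itself left out, and 56 of the 59 passed the filter on low counts among 15532 genes tested. RNA was sequenced from 9 libraries of RKO, a human colorectal cancer cell line with microsatellite instability, each from cells grown for 48 h. There were 2 samples of parental RKO, 2 DIP2C-/- clones (E3 and C10) and 5 DIP2C+/- clones (A6-C9, A9-A12, F6-A7, G1-A5 and H9-A4). In the clones, part of DIP2C exon 9 had been removed by a recombinant adeno-associated virus (rAAV) construct, with Geneticin selection and Cre removal of the selection cassette, and each clone had been grown from a single cell. The parental samples went through none of these steps, and no clone that was selected but kept both DIP2C alleles was among the samples. The methods of the study derive the DIP2C-/- clones from a DIP2C+/- clone by a further round of targeting, without naming that clone as the labels do. The question was whether a stretch of neighbouring genes on the targeted arm had shifted together in any single clone.

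Gene targeting by homologous recombination acts on the locus that matches the homology arms, and a clone grown from a single cell passes on whatever else happened in that cell to all of its progeny. Neighbouring genes on an arm share no pathway as such, but a deletion or duplication of a segment changes the number of copies of every gene in it together, and RNA levels often follow the number of gene copies. The 59 genes hold varied housekeeping and regulatory functions, among them a histone reader (ZMYND11), a glycolytic enzyme (PFKP), a Polycomb protein (BMI1) and a mitotic kinase (MASTL).

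DIP2C lies at chr10:320141-735608 on the minus strand (GRCh37, which is hg19, with GENCODE 44 gene models), between the members ZMYND11, which ends 19564 bases away on the side of the telomere, and LARP4B, which starts 117265 bases away on the other. The targeted exon is shown because it places the edit among the genes that follow. It is a coding exon of 92 bases at chr10:454866-454957, read here from the reference on the strand of the gene, with the exon in capitals and 10 bases of intron in lower case on each side.
DIP2C exon 9: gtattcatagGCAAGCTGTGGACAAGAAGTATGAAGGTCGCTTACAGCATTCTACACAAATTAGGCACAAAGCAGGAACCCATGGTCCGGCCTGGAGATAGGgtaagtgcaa

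Levels are given as counts per 1000000 (CPM), scaled by TMM factors, and a difference is the log2 CPM of a clone minus the mean of the 2 parental samples, with a prior count of 2. Totals of the deposited counts were 14772593 (E3, the lowest) to 21486483 (G1-A5) per library, and 3 counts corresponded to 0.148 to 0.194 CPM. Marker levels that follow in this paragraph are CPM before TMM scaling, the factors being 0.9452 (G1-A5) to 1.051 (E3). Summed CPM of 9 colon epithelial markers was 254 to 307 in parental RKO, 158 to 183 in the DIP2C-/- clones and 175 to 329 in the DIP2C+/- clones. KRT18 (127 to 292 CPM) and CDX2 (at least 14.9 CPM) were present in every library, while KRT19, KRT20 and CDX1 did not pass the filter. EPCAM, VIL1 and CDH1 were low, with at most 3.81, 0.964 and 0.713 CPM. The sum was thus mostly KRT18, which had a parental mean of 240 CPM before TMM scaling. Summed CPM of 4 mesenchymal markers was 4.16 to 5.43 in parental RKO, 4.07 to 5.39 in DIP2C-/- and 1.93 to 6.17 in DIP2C+/- clones. PTPRC, which marks blood cells, reached at most 0.837 CPM. The part of the lower epithelial sum of the DIP2C-/- clones in the results below was not tested. In a bulk sample, fewer cells expressing a gene and less RNA per cell cannot be told apart. Clone H9-A4 stood close to parental RKO across genes, with 4.18% of all genes at least 2-fold lower than the parental mean, the fewest of the 7 clones. The edgeR tests between groups were therefore also made without it, while DESeq2 and the fit of E3 and C10 as groups of their own kept it. The biological coefficient of variation was 0.2975 with all 9 libraries and 0.2423 without H9-A4. That choice was made on the same values that are tested, and it lowers the spread. Adjusted p-values without H9-A4 are therefore descriptive and lend no independent support.

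DIP2C, which encodes a member of the disco-interacting protein 2 family, had 61.0 and 70.9 CPM in the parental samples. It had 17.4 CPM in E3 and 22.8 CPM in C10, below all other libraries. Among the DIP2C+/- clones it had 47.0 CPM in F6-A7, 56.3 in H9-A4, 38.9 in A9-A12, 41.7 in G1-A5 and 33.6 in A6-C9, also below both parental samples. The log2 fold change of the DIP2C-/- clones was -1.71 (SE 0.25), with an adjusted p of 0.0998 in edgeR's quasi-likelihood test with Benjamini-Hochberg adjustment, and without H9-A4 the same fold change had an adjusted p of 0.00102. The levels followed the genotype labels in order, the DIP2C-/- clones not overlapping the DIP2C+/- clones. H9-A4, however, lay only -0.22 on the log2 scale from the parental mean, as far as the parental samples lay from each other (-0.22, sample 1 minus sample 2).

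Clone E3 was low over the part of 10p nearest the telomere, and the other DIP2C-/- clone was not. The median difference of the 56 members was -0.40 in E3, against 0.02 over all genes tested in the same library and 0.07 over 401 genes of the long arm, 10q. In the other 6 clones the median over the members was between -0.08 (A9-A12) and 0.04 (C10), and the difference between the 2 parental samples had a median of -0.02. E3 had the lowest level of the 9 libraries for 30 of the 56 members (53.6%), where 11.6% of all genes were lowest in E3. C10 was lowest for 0 of the 56 members, with 7.36% of all genes lowest there. The parental samples were lowest for 3 and 5 members (10.4% and 9.94% of all genes). In the DIP2C+/- clones the counts were 6 in F6-A7 (11.8%), 3 in H9-A4 (14.7%), 6 in A9-A12 (12.7%), 1 in G1-A5 (12.4%) and 2 in A6-C9 (9.16%). E3 was thus the single library in which members were lowest more often than genes at large.

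**Figure D1:**
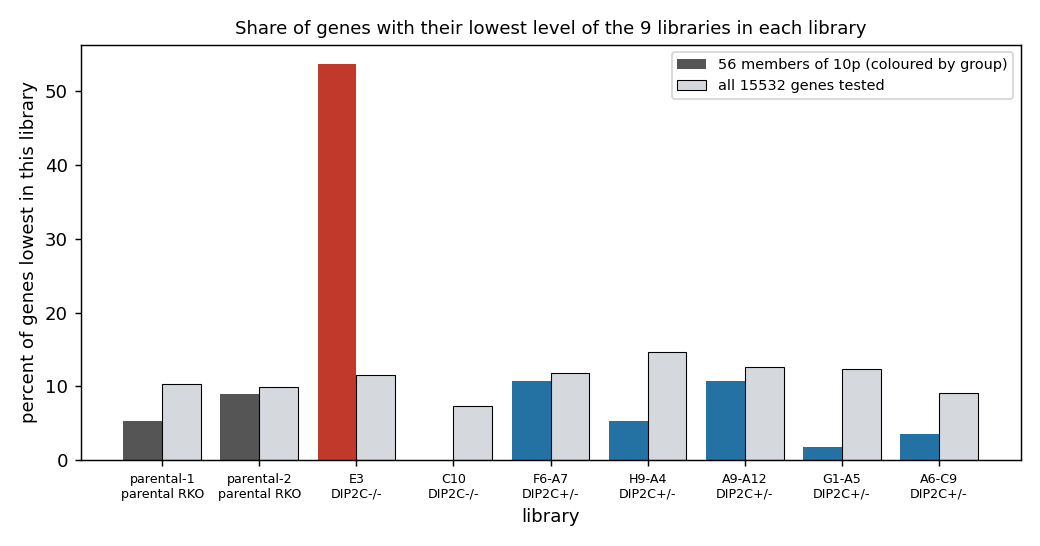
Percent of genes whose lowest CPM of the 9 libraries fell in each library (vertical axis), for the 56 members of 10p (bars coloured by group: grey parental RKO, red DIP2C-/-, blue DIP2C+/-) and for all 15532 genes tested (pale bars). The member bar reaches 53.6% in E3 and at most 10.7% in any other library, while the pale bars lie between 7.36% and 14.7%.

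The members were divided by position into 4 runs of neighbours. In E3 the run from ZMYND11 to RBM17 had a median difference of -0.55 (11 members tested), the run from TAF3 to FRMD4A -0.60 (13 members) and the run from HSPA14 to PIP4K2A -0.52 (14 members). The run from MSRB2 to CCNY, nearest the centromere, had a median of -0.10 (18 members). In C10 the same runs had medians of 0.29, 0.09, 0.00 and 0.03. Set directly against C10, which needs no parental sample, E3 differed by -0.67, -0.61, -0.60 and -0.12, and all 11, 12 of 13, all 14 and 15 of 18 members lay lower in E3 than in C10. Over all genes tested 55% lay lower in E3 than in C10.

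**Figure D2:**
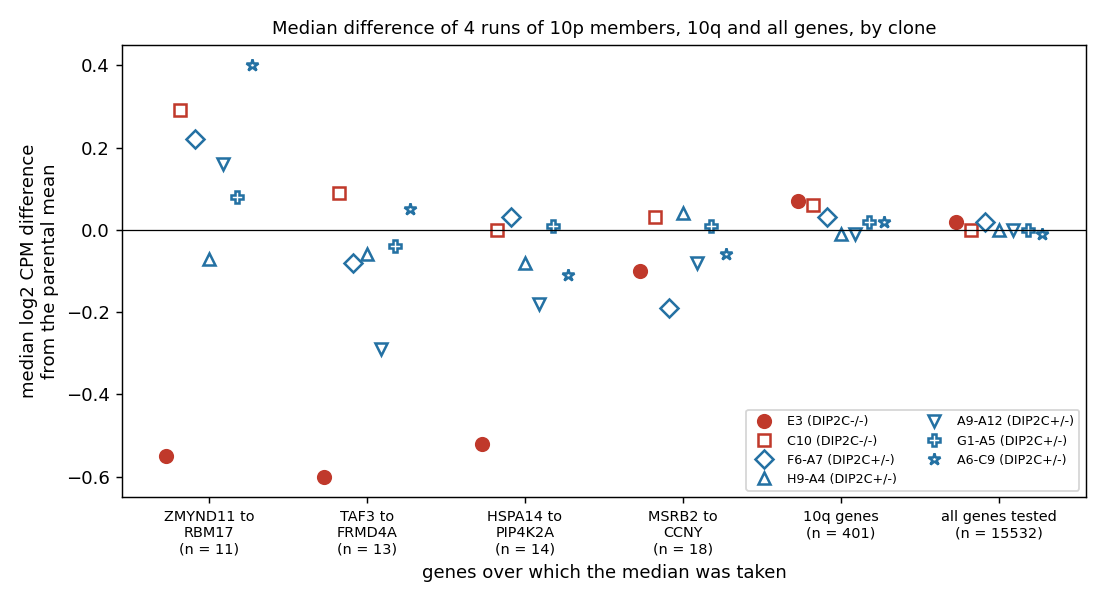
Median log2 CPM difference from the parental mean (vertical axis) of the 4 runs of members, of 10q genes and of all genes tested, with the number of genes below each; red symbols are DIP2C-/- clones and blue symbols DIP2C+/- clones. E3 (filled circles) lies at -0.55, -0.60 and -0.52 in the runs nearest the telomere, below every other clone, and at -0.10 in the run from MSRB2 to CCNY, where F6-A7 lies lower at -0.19.

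Next to DIP2C, ZMYND11, a reader of methylated histone H3 that restrains transcription, had 90.1 and 78.4 CPM in parental RKO, 57.4 in E3 and 96.5 in C10. It had 53.5 (A9-A12) to 83.8 CPM (A6-C9) in the DIP2C+/- clones, so that A9-A12 lay lower still than E3. LARP4B, an RNA-binding protein of the La-related family, lies on the other side of DIP2C and had 209 and 225 CPM in parental RKO, 169 in E3 and 270 in C10, with 243 to 285 CPM in the DIP2C+/- clones. E3 was therefore the only library below the parental samples for LARP4B, and 6 of the 7 clones lay above both of them. GTPBP4, a GTPase of ribosome assembly, had 292 and 277 CPM in parental RKO, 265 in E3, 435 in C10 and 266 to 428 in the DIP2C+/- clones. For WDR37, a WD-repeat protein, the 6 clones other than H9-A4 lay above both parental samples (46.7 and 58.9 CPM), with 62.7 in E3 and 87.5 in C10. Among the neighbours of DIP2C, the log2 difference of E3 from C10 was -0.75 for ZMYND11, -0.67 for LARP4B, -0.71 for GTPBP4 and -0.48 for WDR37, while the position of E3 against parental RKO varied from gene to gene.

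Farther along, PITRM1, a mitochondrial peptidase, had 186 and 181 CPM in parental RKO, 117 in E3 and 224 in C10. Its levels in the DIP2C+/- clones were 214 CPM in F6-A7, 170 in H9-A4, 209 in A9-A12, 212 in G1-A5 and 272 in A6-C9, so E3 lay below every other library. KLF6, a zinc finger transcription factor with growth-suppressing roles, varied more: 61.4 and 64.0 CPM in parental RKO, 27.7 in E3, 79.8 in C10 and 35.2 (F6-A7) to 102 CPM (A6-C9) in the DIP2C+/- clones. FRMD4A, a scaffold of epithelial polarity, had 24.6 and 27.3 CPM in parental RKO, 11 in E3, 28.3 in C10 and 22.4 to 29.8 in the DIP2C+/- clones. The 8 libraries other than E3 lay between 22.4 and 29.8 CPM for FRMD4A, and E3 lay at -1.23 on the log2 scale from the parental mean. FRMD4A overlaps PRPF18 in the annotation, and PITRM1 overlaps PITRM1-AS1, so reads of these overlaps may have gone to either gene. GDI2, which recycles Rab GTPases, had 782 and 632 CPM in parental RKO, 425 in E3, 656 in C10 and 606 to 743 in the DIP2C+/- clones, so E3 was lowest here too. RSU1, an adhesion adaptor, had 78.8 and 68.5 CPM in parental RKO, 51.0 in E3, 85.8 in C10 and 66.8 to 100 in the DIP2C+/- clones. PITRM1, GDI2, FRMD4A and RSU1 were named after their values had been seen, as examples of genes for which E3 was the lowest library. At least 1 of the DIP2C+/- clones also lay below both parental samples for each of them, by less than E3.

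**Figure D3:**
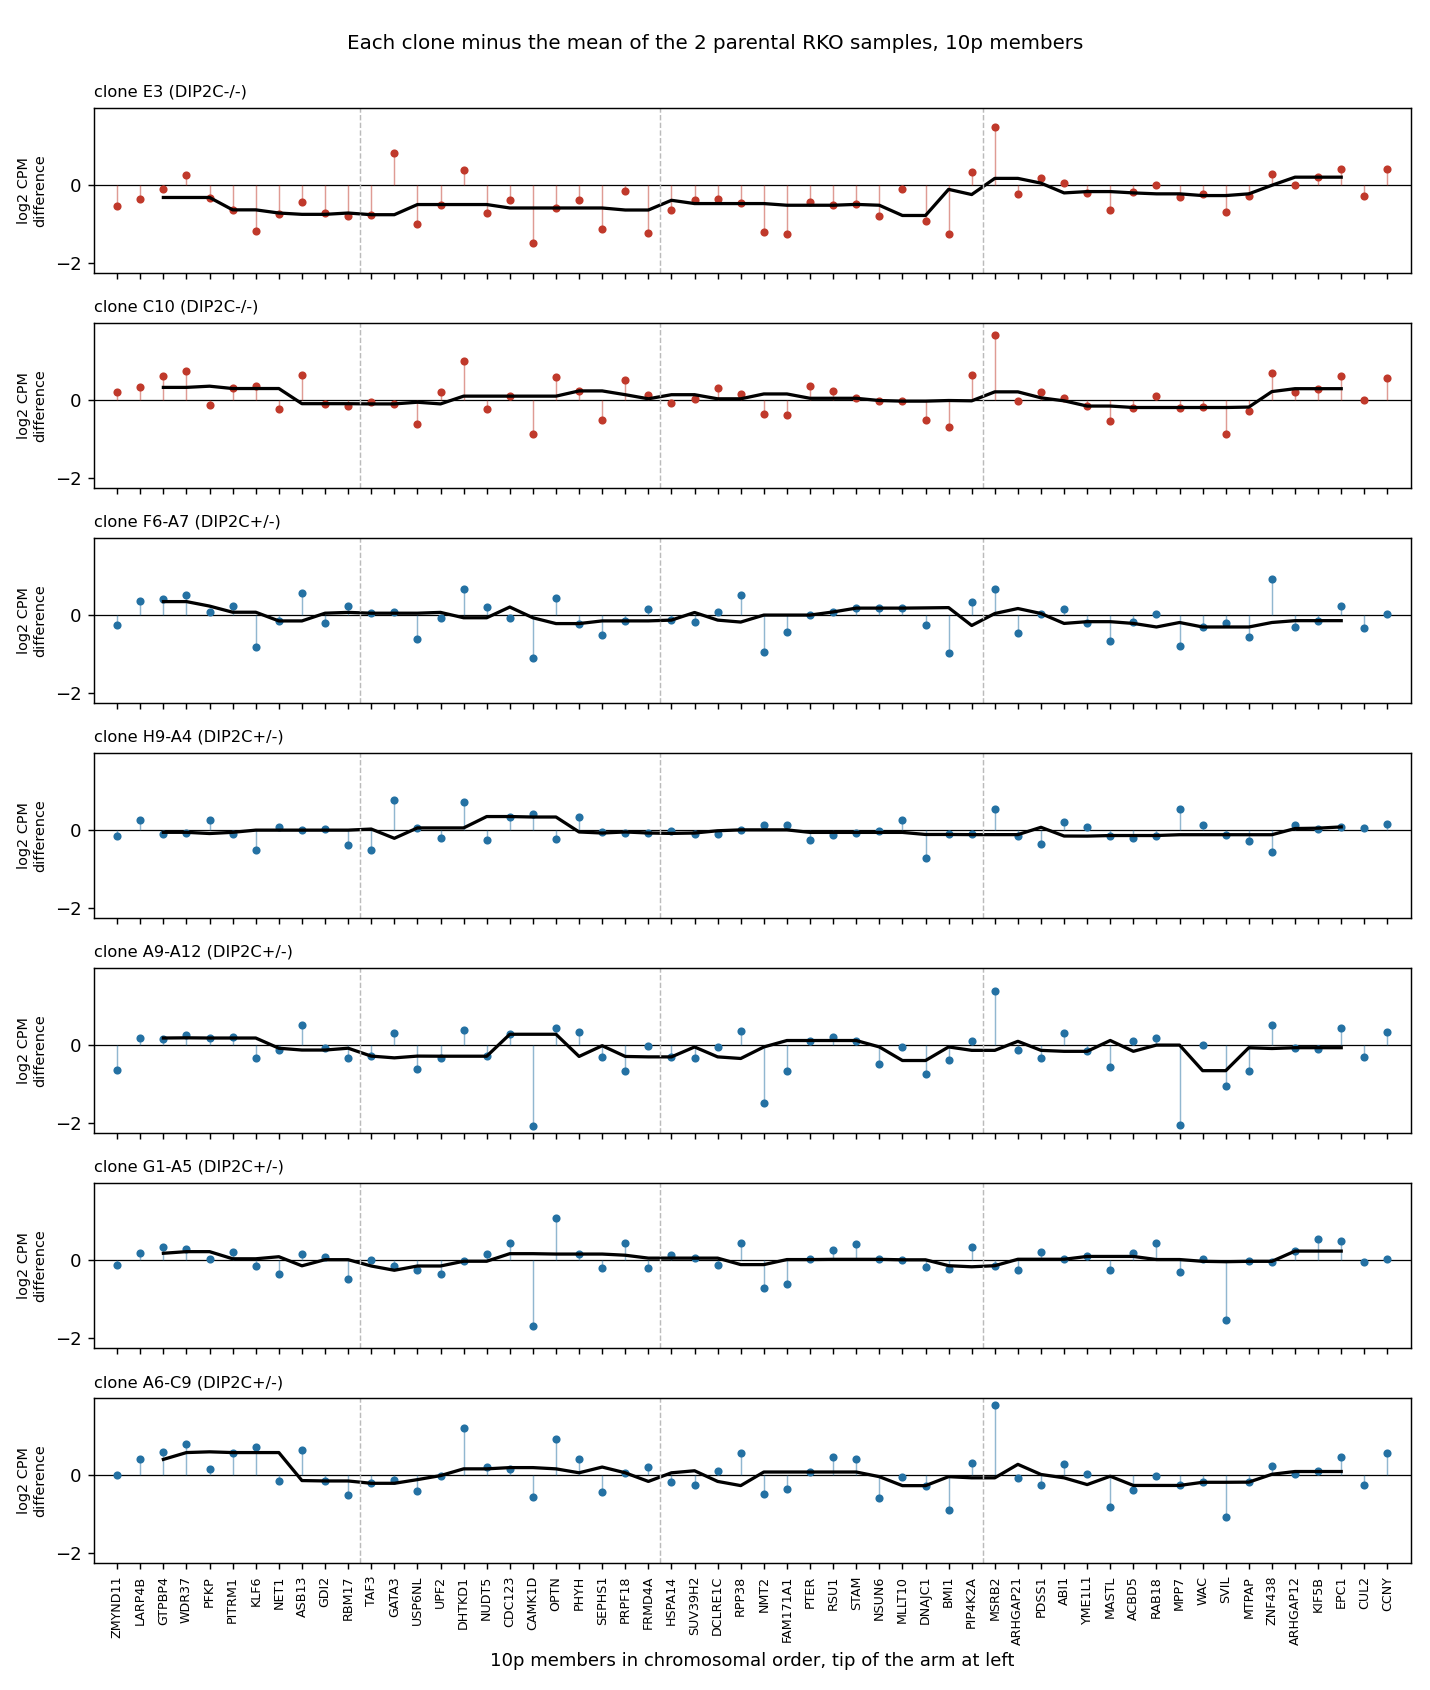
Log2 CPM difference of each clone from the parental mean (vertical axis, points and stems) for the 56 members tested, in chromosomal order from the tip of the arm (horizontal axis), with 1 panel per clone; the black line is a running median of 5 neighbouring members and dashed lines separate the 4 runs. In E3 the line stays at or below -0.4 at 30 of 52 positions and reaches -0.79 at MLLT10 and DNAJC1, while in A9-A12 it does so at 4 positions and in each other clone at 0.

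Between NSUN6 and MSRB2 the members differed from each other in E3, and the running median was lowest there (-0.79 at MLLT10 and DNAJC1, then -0.12 at BMI1). NSUN6, an RNA cytosine methyltransferase, was at -0.79 in E3. Beyond it, MLLT10, a chromatin cofactor and leukaemia fusion partner, was at -0.12, DNAJC1, a chaperone of the endoplasmic reticulum, at -0.93, BMI1, a component of Polycomb repressive complex 1, at -1.25, and PIP4K2A, a lipid kinase, at 0.32. DNAJC1 and BMI1 were also low in other clones: DNAJC1 lay below both parental samples in all 7 clones, and BMI1 lay at -0.71 in C10, -0.99 in F6-A7 and -0.91 in A6-C9. BMI1 overlaps the readthrough gene COMMD3-BMI1, to which reads may have been assigned, so its level is uncertain. Set against C10, E3 was at -0.75 for NSUN6, -0.10 for MLLT10, -0.40 for DNAJC1, -0.54 for BMI1 and -0.31 for PIP4K2A. From the tip to NSUN6 the 34 members tested had a median of -0.54 in E3, 33 of them lay lower in E3 than in C10, and 27 were lowest of the 9 libraries in E3. The 22 members beyond NSUN6 had a median of -0.15, and 3 of them were lowest in E3. This edge was chosen from the same values and is given without a test.

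Genes of 10p that are not members, placed by the annotation, were also compared. All 68 tested had a median difference of -0.01 in E3. The 33 between the tip and NSUN6 had a median difference of -0.35 in E3 and -0.10 in C10. Of these 33, 21 lay below the parental mean in E3 and 19 in C10, and 23 lay lower in E3 than in C10. Their interquartile range in E3 was -0.74 to 0.21. The 35 beyond NSUN6 had medians of 0.24 in E3 and 0.04 in C10. Over those 35, H9-A4 and A9-A12 were each at -0.35. Among those with a mean of at least 10 CPM, a limit set after the data had been seen, the 12 toward the tip had a median of -0.72 in E3, with 11 of 12 below the parental mean, and the 15 beyond NSUN6 a median of 0.11, where H9-A4 was at -0.47. The tested genes of the genome were also taken in 688 windows of 20 neighbours. For E3 minus C10, 5 windows had a median of -0.3 or less, and 4 of them were the 4 windows at the start of chromosome 10, at -0.67, -0.49, -0.62 and -0.35. The fifth, on chromosome 17, was at -0.30. On the high side, 13 windows of E3 minus C10 were at 0.3 or more, reaching 0.66. Between the parental samples 1 window of 688 was at -0.3 or less. It lay at -0.72, lower than any window of E3 minus C10, and was not on chromosome 10. The highest parental window was at 0.54. Against the parental mean the lowest window of the genome was at -0.62 in E3, -0.64 in C10, -0.68 in F6-A7 and -0.43 in H9-A4. It was at -0.75 in A9-A12, -0.53 in G1-A5 and -0.69 in A6-C9. Against the parental mean E3 had 13 windows at -0.3 or less, 3 of them on chromosome 10 (-0.50, -0.40 and -0.62), and 38 at 0.3 or more, reaching 0.83. The other clones had 5 (H9-A4) to 41 (A9-A12) windows at -0.3 or less, of which A9-A12 had 3 on chromosome 10 (-0.32, -0.38 and -0.34), G1-A5 had 2 (-0.30 and -0.50), F6-A7 had 1 and C10, H9-A4 and A6-C9 had 0. At -0.4 or less, E3 minus C10 had 3 windows, all 3 on chromosome 10. Against the parental mean E3 had 6 such windows, 3 of them on chromosome 10. The other clones had 2 (C10 and H9-A4) to 11 (A9-A12), with 1 on chromosome 10, in G1-A5. Against the parental mean, low shifts of this size were thus found elsewhere in the genome and in other clones. For E3 minus C10 they were found on chromosome 10 only. RNA alone was measured in the files used here, and the number of gene copies was not tested.

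**Figure D4:**
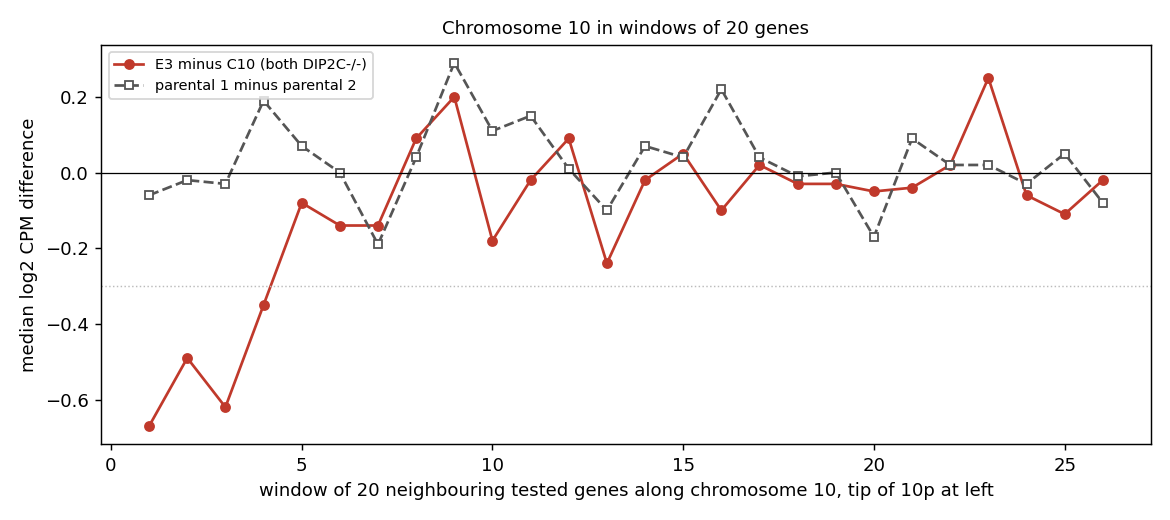
Median log2 CPM difference (vertical axis) in windows of 20 neighbouring tested genes along chromosome 10 (horizontal axis, tip of 10p at left), for E3 minus C10 (red circles) and for parental 1 minus parental 2 (open squares); the dotted line is at -0.3. The red line starts at -0.67, -0.49, -0.62 and -0.35 and then stays above -0.3 to the end of 10q.

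E3 and C10 were also each fitted as a group of 1 library, an alternative added after the data had been seen. Each lone library is assumed there to vary like the other groups, so these p-values carry no replicate of either clone. In E3, 0 of the 56 members passed the adjusted threshold against parental RKO, where 0.0258% of all genes did, and the smallest adjusted p among members was 0.692 (edgeR with Benjamini-Hochberg adjustment). At an unadjusted p under 0.05, 15 of 56 members were lower in E3 and 0 higher, and 4.02% of all genes were lower. Against C10, 0 members passed, where 0.0193% of all genes did, the smallest adjusted p being 1, and 13 members were lower and 0 higher at an unadjusted p under 0.05, with 0.541% of all genes lower. C10 against parental RKO in the same fit had 0 members passing, where 0.00644% of all genes did, and 7 members higher (3.39% of all genes) and 0 lower (2.74%) at an unadjusted p under 0.05. In C10, 10 of 56 members had a difference of 0.5 or more from the parental mean (16.4% of all genes), and the differences of E3 from C10 include these higher levels.

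The members were also sorted by function, which crosses the runs. In E3 the median difference was -0.32 for 10 genes of chromatin and transcription, -0.44 for 10 of RNA and translation, -0.33 for 11 of metabolism and mitochondria, -0.56 for 18 of signalling, trafficking and cytoskeleton and -0.37 for 7 others. All 10 genes of RNA and translation lay below the parental mean in E3, and 4 of them did in C10. Of all 15532 genes tested, 7511 did in E3 and 7710 in C10. All of these 10 genes but MTPAP lie between the tip and NSUN6, so function and position cannot be told apart for them. In C10 the medians were 0.00, 0.12, 0.20, 0.00 and 0.31 in the same order, so no functional group was low in both DIP2C-/- clones.

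A difference of -0.5 or less was found in E3 for 24 of 56 members (42.9%), against 15.1% of all genes, and one of 2-fold or more for 8 (14.3%), against 5.47%. In C10 the corresponding counts were 7 (16.6% of all genes) and 0 (6.23%). Among the DIP2C+/- clones, 9 members were at -0.5 or less in F6-A7 (16.9% of all genes), 4 in H9-A4 (12.8%), 11 in A9-A12 (18.2%), 4 in G1-A5 (19.4%) and 6 in A6-C9 (20.5%). Members at least 2-fold lower numbered 4 in A9-A12, 2 in G1-A5, 1 in F6-A7, 1 in A6-C9 and 0 in H9-A4, where 6.55%, 7.96%, 5.97%, 7.84% and 4.18% of all genes were. Outside E3 the share of low members thus lay near or under the share of all genes. Members at least 2-fold higher were few in every clone, with 1 in E3 (8.95% of all genes), 1 in C10 (5.7%), 0 in F6-A7 (8.13%), 0 in H9-A4 (3.26%), 1 in A9-A12 (7.33%), 1 in G1-A5 (4.01%) and 2 in A6-C9 (6.19%). In A6-C9 the members nearest the tip leaned the other way, the running median reaching 0.59 at PFKP and 0.4 or more at 5 of 52 positions, and the median of the run from ZMYND11 to RBM17 was 0.40. The run was also above 0 in C10 (0.29, but 0.07 without the filter on low counts) and in F6-A7 (0.22), where the sign turned without parental replicate 1 (-0.02) and without the filter (-0.08). It was above 0 in A9-A12 (0.16) and G1-A5 (0.08) as well, turning to -0.02 in G1-A5 with library size only. H9-A4 was at -0.07.

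Some members were low in most clones, whatever the arm as a whole did. CAMK1D, a calcium- and calmodulin-dependent kinase at chr10:12391546-12877545, had 32.8 and 33.1 CPM in parental RKO, 11.6 in E3 and 17.7 in C10. Its levels in the DIP2C+/- clones were 15.3 CPM in F6-A7, 43.8 in H9-A4, 7.73 in A9-A12, 10.1 in G1-A5 and 22.2 in A6-C9. All clones but H9-A4 lay below the parental samples, and H9-A4 lay above them. NMT2, which attaches myristate to proteins, had 66.0 and 72.2 CPM in parental RKO, 29.8 in E3, 53.4 in C10, 35.8 in F6-A7, 74.6 in H9-A4, 24.3 in A9-A12, 41.6 in G1-A5 and 48.8 in A6-C9, with the same exception. NMT2 overlaps RPP38 in the annotation, so reads of the overlap may have gone to either gene. USP6NL, a GTPase-activating protein for Rab5, had 69.3 and 73.8 CPM in parental RKO, 35.7 in E3, 46.6 in C10, 46.5 in F6-A7, 74.0 in H9-A4, 46.2 in A9-A12, 59.4 in G1-A5 and 53.3 in A6-C9. H9-A4 was the clone that matched or exceeded parental RKO for CAMK1D, NMT2 and USP6NL.

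**Figure D5:**
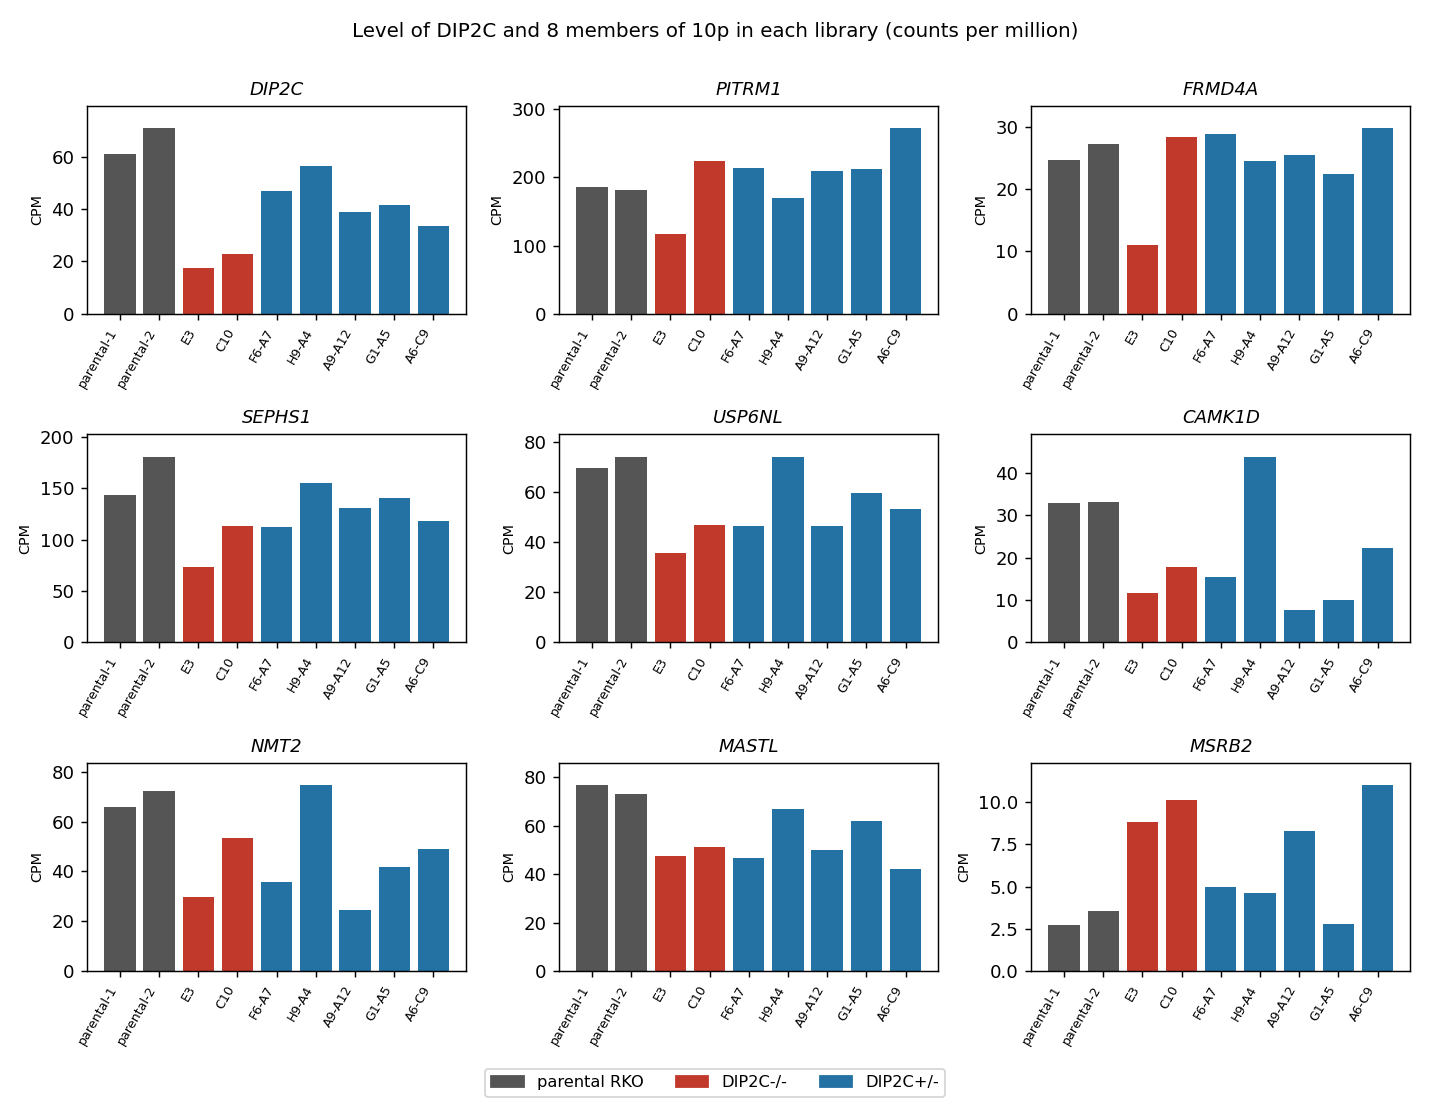
CPM (vertical axes, each from 0) of DIP2C and 8 members in the 9 libraries, grey bars for parental RKO, red for DIP2C-/- and blue for DIP2C+/-. PITRM1 and FRMD4A are lowest in E3 (117 and 11 CPM), CAMK1D, NMT2 and USP6NL are low in every clone but H9-A4, MASTL is below both parental samples in all 7 clones, and MSRB2 is highest in A6-C9, C10 and E3.

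In the fit of all 9 libraries, 0 of the 56 members passed in DIP2C-/- clones against parental RKO (0.00644% of all genes passed), in DIP2C+/- clones (0.0966%), in the average of all 7 clones (0.18%) or between DIP2C+/- and DIP2C-/- clones (0%). At an unadjusted p under 0.05 the member counts were 11, 1, 9 and 3, where 12.7%, 11.6%, 13.4% and 5.57% of all genes were, and DESeq2's Wald test also called 0 members in each comparison. The share of members at the unadjusted threshold was thus above that of all genes in the DIP2C-/- clones and in the average, and below it in the DIP2C+/- clones. H9-A4 was left out in a further fit for its closeness to parental RKO, so the adjusted p-values that follow are descriptive. Without H9-A4, USP6NL fell in the DIP2C-/- clones by 0.80 on the log2 scale (SE 0.19, adjusted p = 0.0360 in edgeR), where 4.71% of all genes passed. CAMK1D fell in the DIP2C+/- clones by 1.25 (SE 0.34, adjusted p = 0.0485 in edgeR), where 7.82% passed. In the average of the 6 clones then left, CAMK1D (-1.22, adjusted p = 0.0346), USP6NL (-0.58, adjusted p = 0.0319) and MASTL (-0.59, adjusted p = 0.0327) passed in edgeR, 3 of 56 members where 8.83% of all genes did. The share of members called was thus no higher than that of all genes in any of these fits.

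MASTL, the Greatwall kinase that holds back a phosphatase during mitosis, had 76.7 and 73.1 CPM in parental RKO, 47.3 in E3, 51.3 in C10, 46.8 in F6-A7, 66.9 in H9-A4, 49.9 in A9-A12, 62.0 in G1-A5 and 42.1 in A6-C9. It overlaps ACBD5 and YME1L1 in the annotation. DNAJC1 had 15.0 and 14.3 CPM in parental RKO and 7.61 (E3) to 12.9 CPM (G1-A5) in the clones. ARHGAP21 had 174 and 177 CPM in parental RKO and 126 (F6-A7) to 172 CPM (C10) in the clones. MASTL, DNAJC1 and ARHGAP21 were the 3 of 56 members that lay below both parental samples in all 7 clones, where 5.54% of all genes did, and 0 members lay above in all 7, where 5.41% did. Leaving H9-A4 aside, 11 members lay below (11.5% of all genes) and 2, WDR37 and EPC1, above (12.4%).

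SVIL, the actin-binding protein supervillin, had 37.4 and 57.3 CPM in parental RKO, 28.4 in E3, 25.1 in C10 and 15.7 (G1-A5) to 42.4 CPM (H9-A4) in the DIP2C+/- clones, but the parental samples themselves differed by -0.61 on the log2 scale (sample 1 minus sample 2) and it passed in neither fit. MPP7, a polarity scaffold, had 4.63 and 5.43 CPM in parental RKO, 1.13 CPM in A9-A12 and 2.8 (F6-A7) to 7.3 CPM (H9-A4) in the other clones. MSRB2, a mitochondrial methionine sulfoxide reductase, was the member that lay farthest above parental RKO: 2.75 and 3.55 CPM in the parental samples, 8.84 in E3, 10.1 in C10, 5 in F6-A7, 4.59 in H9-A4, 8.27 in A9-A12, 2.81 in G1-A5 and 11 in A6-C9. G1-A5 lay between the parental samples, and the log2 fold change of the DIP2C-/- clones was 1.58 (SE 0.57, adjusted p = 0.340 in edgeR). MSRB2 lies in the run nearest the centromere, and E3 and C10 differed little in it.

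DHTKD1, OPTN and ZNF438 were each among the 2 highest members of at least 1 clone. Most clones lay above both parental samples for them, and for other members such as LARP4B, WDR37, MSRB2 and EPC1. The share of all genes with most clones above was not taken, so nothing particular to the members can be read from this. DHTKD1, a mitochondrial 2-oxoadipate dehydrogenase subunit, had 24.5 and 29.7 CPM in parental RKO, 34.9 in E3, 53.5 in C10 and 26.3 (G1-A5) to 62.0 CPM (A6-C9) in the DIP2C+/- clones. OPTN, an autophagy receptor, had 25 and 28.5 CPM in parental RKO, 17.6 in E3, 40.1 in C10 and 22.6 (H9-A4) to 56.1 CPM (G1-A5) in the DIP2C+/- clones. OPTN overlaps CCDC3 in the annotation. For DHTKD1 and OPTN, E3 again lay below C10, with log2 differences of -0.62 and -1.18. ZNF438, a zinc finger protein, had 3.14 and 3.39 CPM in parental RKO and 2.15 (H9-A4) to 6.21 CPM (F6-A7) in the DIP2C+/- clones. KIF5B, the kinesin heavy chain, had 329 and 302 CPM in parental RKO, 360 in E3, 383 in C10 and 284 (F6-A7) to 455 CPM (G1-A5) in the DIP2C+/- clones. PFKP, the platelet-type phosphofructokinase, had 227 and 275 CPM in parental RKO, 199 in E3 and 228 in C10, and 254 to 299 CPM in the DIP2C+/- clones. The first parental sample thus lay at the level of C10. The direct comparison did not pass for PFKP (log2 fold change 0.36 for DIP2C+/- over DIP2C-/-, SE 0.14, adjusted p = 0.878 in edgeR).

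The members whose levels ran most like those of DIP2C over the 9 libraries were SEPHS1, a selenophosphate synthetase paralog (Pearson's r = 0.89), USP6NL (0.87) and NET1 (0.83). SEPHS1 had 144 and 181 CPM in parental RKO, 73.7 in E3, 113 in C10 and 112 (F6-A7) to 155 CPM (H9-A4) in the DIP2C+/- clones. NET1 had 146 and 142 CPM in parental RKO, 85.0 in E3, 122 in C10 and 112 (G1-A5) to 151 CPM (H9-A4) in the DIP2C+/- clones. SEPHS1, USP6NL and NET1 were at their lowest in E3, as DIP2C was, and the libraries share clone histories and groups, so the coefficients describe these 9 libraries only.

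A few members were at the edge of detection. The aldo-keto reductases AKR1C1, AKR1C2 and AKR1C3, steroid- and carbonyl-reducing enzymes that NRF2 can induce, did not pass the filter, with 0 to 3.34, 0.947 to 6.40 and 0.843 to 14.2 deposited counts per library. They are related copies whose reads may be split. AKR1C3 had 14.2 deposited counts in A9-A12 and at most 3.34 in any other library, a difference that rests on 1 library and few counts. The fit without a filter called 0 of the 59 members in each comparison. NRF2 targets elsewhere were well measured, 9 of 10 passing the filter. Their summed CPM before TMM scaling was 967 to 1100 in parental RKO, 1020 to 1130 in the DIP2C-/- clones and 1060 to 2290 in the DIP2C+/- clones. GATA3, a transcription factor of luminal breast epithelium and T cells, had 4.46 to 9.95 deposited counts per library, or 0.209 to 0.581 CPM. Its highest CPM of the 9 libraries was in E3, while its highest deposited count was in H9-A4 (9.95, against 9.01 in E3). GATA3 was thus the exception among the 34 members from the tip to NSUN6 that lay higher in E3 than in C10, at a level of a few counts.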

How the data were processed

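RNA was sequenced by the authors on the Ion Proton system and aligned to hg19 (gene models from iGenomes) with Tophat2 2.0.4. Expression was quantified with Cufflinks, given as version 2.2.1 in the submitters' processing notes. What the authors deposited are estimated counts for gene symbols, not all of them whole numbers. How they were written is not given in the sources used here, and each library's low values are whole multiples of a step of 0.711 to 1.115 for 98.1% to 98.5% of them (tolerance 0.01), as scaling by a constant would give. The fits were repeated on values divided by that step.

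Groups were taken from the labels, which give 5 DIP2C+/- clones where the study's text describes fewer. Members and gene lists were chosen with earlier results of these data known. The estimated counts as deposited were rounded and fitted in edgeR 4.0.16 (R 4.3.3), with filterByExpr, TMM factors and 1 coefficient per group over all 9 libraries, and tested with the quasi-likelihood F test. P-values were Benjamini-Hochberg adjusted over all genes tested, with a threshold of 0.05. DESeq2 1.42.0 was an alternative. Nothing in the labels places samples of a group in separate cultures beyond the clone names, so p-values measure the spread between these libraries. Single clones have 1 library each and were compared with the parental mean (log2 CPM, prior count 2) without a test, except that E3 and C10 were also each fitted as a group of 1 library, with the spread taken from the other groups (an alternative added after the data were seen). Symbols were placed on GRCh37 with GENCODE 44, which held 20507 of 23619 (86.8%), and the arms were divided at the longest gap of the reference. Each clone's count of 3 as a floor covers counting error only. Scripts were tested on simulated data.

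Genes named are DIP2C, its 4 nearest members, PFKP, KLF6, the AKR1C genes, GATA3, BMI1, the 2 lowest and 2 highest members of each clone, members with an adjusted p under 0.05 with all libraries or without 1 DIP2C+/- clone, members with all 7 clones on the same side of parental RKO, and the 3 most like DIP2C. Others are examples named after their values were seen. Tables used Python 3.11.15, numpy 2.4.6, pandas 2.3.3 and matplotlib 3.10.9.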

Additional observations from a re-analysis of the deposited data

How the results depend on the processing

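The median difference of the members in E3 stayed between -0.47 and -0.35 under every scaling, prior count, filter and choice of parental sample tried, and those of the 3 runs nearest the telomere between -0.69 and -0.46. For the number of members passing the test, leaving out each library in turn gave 0 to 1 in DIP2C-/- clones, 0 to 1 in DIP2C+/- clones and 0 to 3 in the average of all clones, each highest value being the fit without H9-A4 (DIP2C+/- replicate 2) and every other 0. A fit of only the compared groups gave 8 in DIP2C-/- clones (BMI1, CAMK1D, MASTL, SEPHS1, SVIL and USP6NL lower, CCNY and MSRB2 higher), 14.3% of members where 11.7% of all genes passed; the spread then came from 4 libraries. Over all genes the 4 comparisons gave 1, 15, 28 and 0 genes with all libraries, 731, 1215, 1371 and 0 without H9-A4, 297, 193, 304 and 6 with DESeq2, 1819, 7, 25 and 1 with only the compared groups, 3, 22, 36 and 0 without a filter and 0, 8, 11 and 0 with at least 10 counts in every library.

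The medians of the run from MSRB2 to CCNY were near 0. With each parental sample left out in turn they were -0.17 to 0.039 in E3 (the sign turning without parental replicate 1), -0.055 to 0.05 in H9-A4, -0.15 to 0.001 in A9-A12 (turning without parental replicate 1) and -0.14 to -0.012 in A6-C9. Scaling by library size gave -0.093 in G1-A5 and -0.14 in A6-C9, and no filter -0.18 in E3. Without a filter, which lets in the AKR1C genes, the run from ZMYND11 to RBM17 was at 0.076 in A6-C9. Counts of members at least 2-fold lower, with each parental sample left out, were 0 to 1 in C10 and 2 to 2 in F6-A7 (2 also without a filter), and of those at least 2-fold higher 1 to 2 in E3, 1 to 2 in C10 (2 without a filter), 0 to 1 in H9-A4 and 0 to 1 in G1-A5 (0 with library size only). In A9-A12 the higher count was 2 without a filter. The cause of these changes was not tested. For E3 the lower count was 6 to 11 with a parental sample left out.

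With 1 library per clone, a clone's difference has no replicate, and the reference is the mean of 2 libraries. No paired analysis was possible because replicate numbers in the labels are given for the parental samples alone and the clones carry names. The fold changes of DIP2C and 11 members (BMI1, CAMK1D, DHTKD1, EPC1, FAM171A1, MASTL, MSRB2, NMT2, SEPHS1, SVIL and USP6NL) in DIP2C-/- clones and in the average of all clones kept their direction under every alternative: 344 values stayed on their side of the threshold and 16 passed it, those of DIP2C, BMI1, CAMK1D, MASTL, MSRB2, SEPHS1, SVIL and USP6NL, in the fit without H9-A4, the fit of only the compared groups or (DIP2C) DESeq2. E3 and C10 lay on opposite sides of the parental mean for KLF6 (-1.18 and 0.35), ZMYND11 (-0.55 and 0.20), OPTN (-0.60 and 0.58) and LARP4B (-0.36 and 0.32), so the direction of the DIP2C-/- group rests there on which clone is included. The medians from ZMYND11 to RBM17 in F6-A7 (0.22 to -0.079 without a filter) and from TAF3 to FRMD4A in A9-A12 (-0.29 to -0.055 without parental replicate 2) moved most after that of A6-C9.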
